A study of Mus musculus with 90 samples.

Results

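Livers that lack the glucocorticoid receptor (GR, encoded by *Nr3c1*) in hepatocytes were compared with livers that keep it, in mice on caloric restriction and at ZT12, the hour of lights off. The 6 livers were taken by their titles, 3 GRLKO and 3 WT, from the 90 bulk RNA-seq libraries of the series. All were male C57BL/6J mice on chow, 12 weeks old when the feeding protocol began, whose calories were lowered in steps to 40% below their usual intake and whose food was given at ZT12. WT mice carried the floxed receptor gene (GRfl/fl) and GRLKO mice carried it together with Alb-Cre (GRfl/fl x Alb-Cre), so that WT here means floxed without Cre. Because every GRLKO mouse carries Cre and no WT mouse does, an effect of Cre itself and of the deletion cannot be told apart. The albumin promoter drives Cre in hepatocytes, so the receptor stays in the other cells of the liver, whose RNA is in the same libraries. The deposited values are estimated counts per gene, and levels are given as CPM after TMM scaling of the libraries, in the order of replicates 1 to 3. The p-values measure spread between these 3 and 3 livers.

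Glucocorticoids are steroid hormones of the adrenal gland, and GR is the protein through which most cells sense them; once hormone is bound, some genes are transcribed more and others less. In the liver it is known for raising enzymes of glucose production and amino acid breakdown, for shaping lipid handling, and for restraining inflammation. Glucocorticoids peak in mice shortly before the active phase, and restricted feeding heightens that peak.

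The targeted gene was measured before any other. *Nr3c1* (ENSMUSG00000024431) had 94.1, 89.5 and 94.1 CPM in WT and 28.1, 29.2 and 28 CPM in GRLKO livers (log2 fold change -1.70 ± 0.07, adjusted p = 8.33e-05), where ± is the standard error of the fit and the p is that of edgeR's quasi-likelihood test after Benjamini-Hochberg adjustment over all 11759 genes tested. Each GRLKO liver lay below each WT liver. Remaining transcript from other liver cells and from exons that were not deleted cannot be told apart in these counts.

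Liver identity was checked with markers of 12 cell or tissue types. The 10 hepatocyte markers summed to 178793, 179748 and 183465 CPM in WT and 136145, 146311 and 128463 CPM in GRLKO livers, with albumin (*Alb*) the most abundant, and all 10 were detected in every library. Of these 10, 6 fell and 4 were not called. Over the 30 libraries of other times on this diet the hepatocyte sum ran from 124329 to 173707 CPM (median 145360). The 3 WT livers lay above that range. Kupffer cell and macrophage markers summed to 66.5, 107 and 76.8 CPM in WT and 179, 143 and 216 CPM in GRLKO livers, and 7 of 12 rose. Without WT replicate 3, GRLKO replicate 1 or GRLKO replicate 3 this number was 4. The most abundant of them, *Clec4f*, had 12.6, 21.5 and 15.8 CPM in WT and 37.5, 31.5 and 38.7 CPM in GRLKO livers. In the 30 libraries of the other time points on the same diet the macrophage sum ran from 154 to 506 CPM (median 232), and the 3 WT livers lay under that range. The 6 livers were scaled without those 30 libraries, so GRLKO replicate 2, close to the lower end, cannot be placed inside or outside it. Endothelial markers summed to 307, 278 and 338 CPM in WT and 380, 347 and 390 CPM in GRLKO livers. Of 10, 1 was called, higher, against 3 without WT replicate 3 and 4 with DESeq2, all higher. None of 9 stellate cell and fibroblast markers was called by edgeR, against 1 by DESeq2, and lymphocyte markers were too low to be tested. Of 3 cholangiocyte markers tested 1 fell, and the 1 neutrophil marker tested rose. With 1 liver left out, both calls stood only in the fit without GRLKO replicate 2. In bulk liver, fewer cells of a type and less RNA per cell cannot be told apart.

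Several libraries stood apart. WT replicate 3 held exocrine pancreas transcripts: 33 of the 38 markers in the table were detected in it, and they summed to 2248 CPM, against 0.386 and 1.27 CPM in the other WT livers and 0.576, 0.666 and 1.56 CPM in the GRLKO livers. Its most abundant pancreas gene was the amylase *Amy2a4* with 585 CPM. The sum ran from 0.405 to 42.2 CPM in the 30 libraries of other times, and the endocrine markers, insulin among them, were at 0 in all 6 livers. None of these markers passed the low-count filter of the 6 livers, so none was tested there. In the fit of all 36 livers on caloric restriction, 1 exocrine marker was called, lower in GRLKO livers. Genes private to a library, with at least 5 CPM and at least 5 times the highest of the others, numbered 30 in WT replicate 3, 26 of them on the pancreas list, with 1 tested and 0 called. GRLKO replicate 1 had 26 private genes, chiefly of striated muscle and keratins, of which 6 were tested and 0 called. Those shown, *Myh1* with 86.3 CPM and *Krt13* with 26.9 CPM, were chosen after their values were seen. WT replicate 2 had 7, among them the male-biased *Mup11* and *Slco1a1*, of which 5 were tested and 3 called. The other livers had 0 (WT replicate 1), 4 (GRLKO replicate 2) and 4 (GRLKO replicate 3). On the first principal component, with 44.5% of the variance, WT livers lay between -37.3 and -33.8 and GRLKO livers between 28.5 and 40.

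Transcripts differed between GRLKO and WT livers in both directions at ZT12. Of 11759 genes tested, 1795 were called at an adjusted p under 0.05, which is 15.3%, with 873 higher in GRLKO livers (7.42% of genes tested) and 922 lower (7.84%). The 3 and 3 livers did not overlap in 4342 genes, 36.9% of those tested. Called genes had a median absolute log2 fold change of 0.68, and 289 of them were at least 2-fold higher and 248 at least 2-fold lower. The median over all genes tested was -0.0041, and the lists of genes are given with their own median and share called, to be read against -0.0041 and 15.3%. The call depended on single livers: it counted 1032 genes without WT replicate 3, and between 899 (without GRLKO replicate 3) and 1329 (without WT replicate 1) over the 6 fits that left out 1 liver. In all 6 of these fits 358 of the higher and 378 of the lower genes were called, and 972 of the 1795 were called without WT replicate 3.

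**Figure D1:**
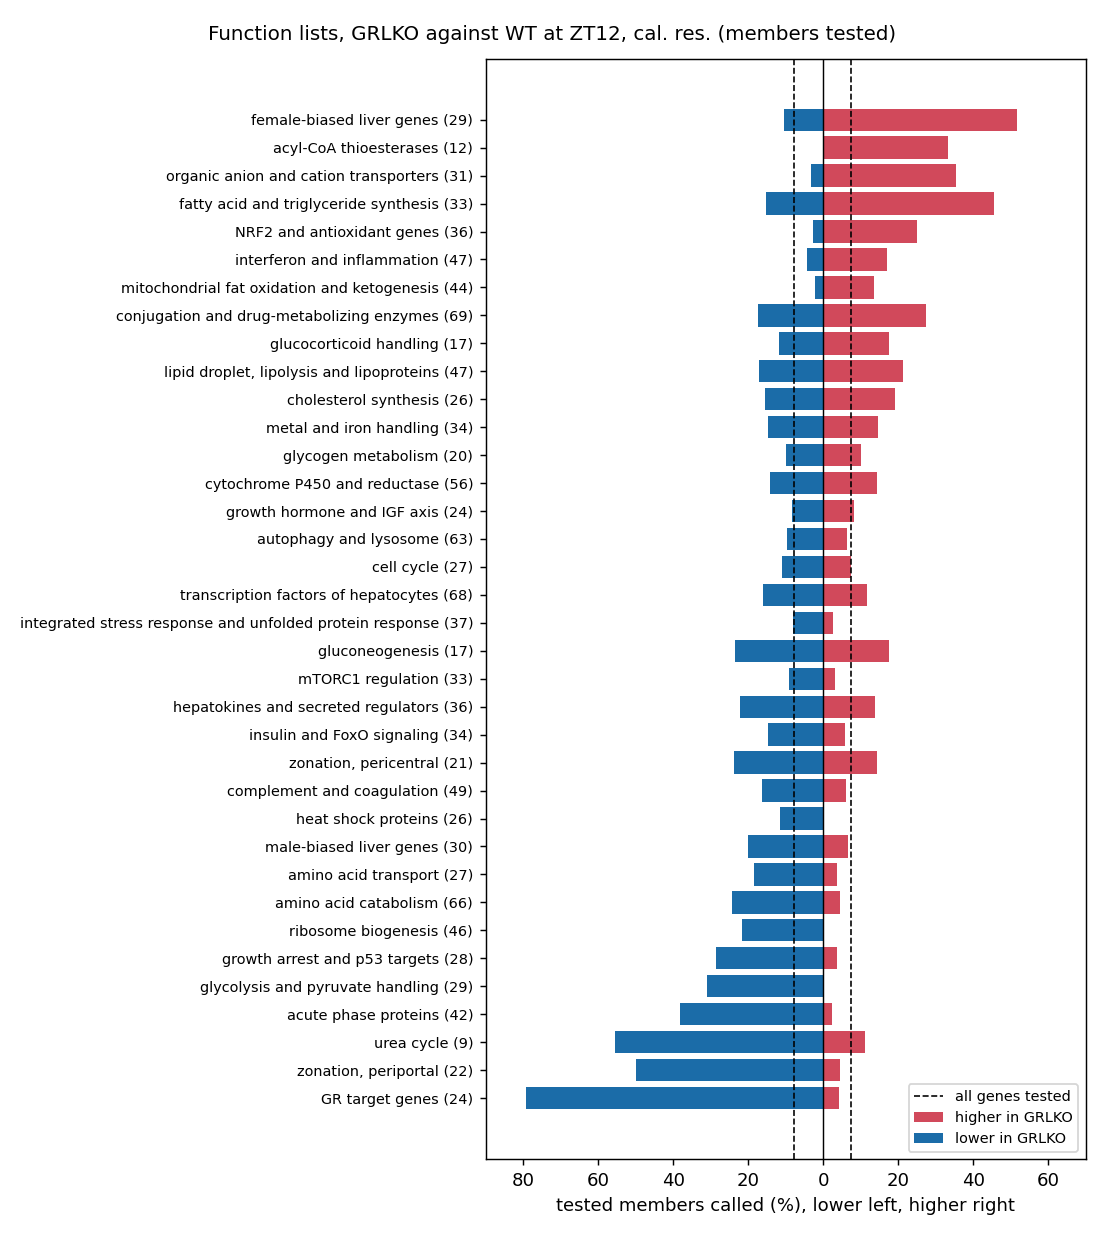
Share of the tested members of each of 36 function lists that was called, in percent, with members lower in GRLKO drawn to the left and members higher drawn to the right, and the number tested in parentheses. Dashed lines mark the shares over all genes tested, 7.84% lower and 7.42% higher. GR target genes (19 of 24 lower) and female-biased genes (15 of 29 higher) reach farthest to each side. The lists were chosen with earlier results of these data known.

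Genes known from many tissues as direct GR targets mostly fell. The list was chosen with earlier results of these data known, so its share called may be partly built in. Of 24 on the list, all tested, 19 fell, 1 rose and 4 were not called, with a median log2 fold change of -1.80 against -0.0041 over all genes and 83.3% called against 15.3%, and 16 falls and the rise were called in every fit that left out 1 liver. *Fkbp5* (ENSMUSG00000024222, chromosome 17, 28399094 to 28517527 on GRCm38), a co-chaperone that lowers the receptor's affinity for hormone, had 306, 293 and 356 CPM in WT and 52.1, 44.6 and 36.9 CPM in GRLKO livers (log2 fold change -2.84 ± 0.15, adjusted p = 0.000144). *Tsc22d3* (ENSMUSG00000031431), which encodes the anti-inflammatory leucine zipper GILZ, had 195, 225 and 238 CPM in WT and 53.6, 67.6 and 60.4 CPM in GRLKO livers (log2 fold change -1.86 ± 0.12, adjusted p = 0.000272). *Zbtb16* (ENSMUSG00000066687), a zinc finger repressor, had 127, 93.8 and 103 CPM in WT and 10.6, 6.86 and 8.83 CPM in GRLKO livers (log2 fold change -3.62 ± 0.19, adjusted p = 0.000144). For these 3 genes no GRLKO liver came near a WT liver. The metallothionein *Mt1*, which binds zinc and copper, had 53.4, 41.7 and 72.8 CPM in WT and 7.33, 7.32 and 3.86 CPM in GRLKO livers (log2 fold change -3.18 ± 0.29, adjusted p = 0.000992). *Errfi1*, an inhibitor of the EGF receptor, had 2146, 2348 and 2191 CPM in WT and 687, 833 and 708 CPM in GRLKO livers (log2 fold change -1.59 ± 0.10, adjusted p = 0.00024). *Klf9*, a Kruppel-like factor, had 159, 134 and 146 CPM in WT and 67.4, 53.5 and 63.3 CPM in GRLKO livers (log2 fold change -1.25 ± 0.11, adjusted p = 0.000968). *Ddit4*, a brake on mTORC1, had 29, 78.2 and 55.7 CPM in WT and 7.7, 5.73 and 8.38 CPM in GRLKO livers (log2 fold change -2.90 ± 0.36, adjusted p = 0.00291), with the WT livers spread widely and all above the GRLKO livers. The sulfotransferase *Sult1e1*, which inactivates estrogen, fell from 4.57, 1.08 and 3.23 CPM in WT to 0.105, 0 and 0.0559 CPM in GRLKO livers (adjusted p = 0.00589), at least 18.6-fold lower when 3 counts per library are set as the floor. The transglutaminase *Tgm2* was the single riser, with 29.2, 29.8 and 29.4 CPM in WT and 61.3, 58.7 and 70.5 CPM in GRLKO livers (log2 fold change 1.11 ± 0.09, adjusted p = 0.000749).

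*Rgs16*, a brake on G protein signaling, had 78.7, 144 and 172 CPM in WT and 30, 21.5 and 20.3 CPM in GRLKO livers (log2 fold change -2.46 ± 0.30, adjusted p = 0.00269), and *Pim3*, a serine kinase, had 79.2, 142 and 106 CPM in WT and 41.7, 43.8 and 44.2 CPM in GRLKO livers (log2 fold change -1.33 ± 0.20, adjusted p = 0.00579). Not every classical target was called. *Cebpd*, a transcription factor, had 2.06, 3.31 and 2.25 CPM in WT and 0.995, 1.38 and 1.45 CPM in GRLKO livers (log2 fold change -0.99 ± 0.29, adjusted p = 0.0617), and *Bcl6*, a repressor, had 10, 30.4 and 8.51 CPM in WT and 4.24, 6.86 and 12 CPM in GRLKO livers (log2 fold change -1.08 ± 0.56, adjusted p = 0.236). *Sgk1*, a kinase of ion transport, had 24.4, 32.1 and 28.9 CPM in WT and 26.3, 22.9 and 33.9 CPM in GRLKO livers, and *Dusp1*, a MAP kinase phosphatase, had 18.5, 23.8 and 28.3 CPM in WT and 15.7, 11.7 and 26 CPM in GRLKO livers, and the genotypes overlapped in both. *Igfbp1*, a binding protein of insulin-like growth factors, fell, with 156, 570 and 241 CPM in WT and 36.1, 19 and 22.5 CPM in GRLKO livers (log2 fold change -3.64 ± 0.52, adjusted p = 0.00508), with WT replicate 2 far above the other livers. Calls of *Lcn2*, *Nfkbia* and *Glul* were lost in most fits that left out 1 liver: without WT replicate 3, for example, their adjusted p was 0.0751, 0.0775 and 0.102.

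**Figure D2:**
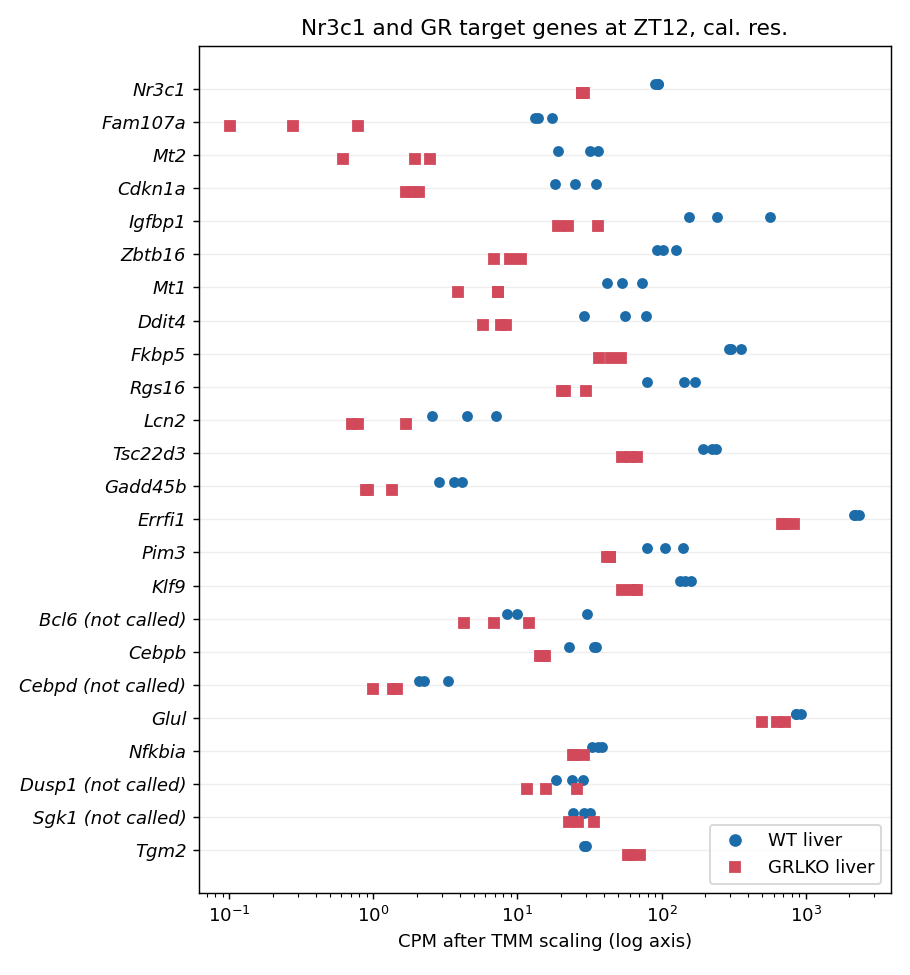
Level of *Nr3c1* and of the GR target genes without a 0 in any liver, in each of the 3 WT (circles) and 3 GRLKO livers (squares) at ZT12 on caloric restriction, in CPM on a log axis. *Fkbp5*, *Tsc22d3* and *Zbtb16* separate the genotypes, *Tgm2* is higher in GRLKO, and *Sgk1* and *Dusp1* overlap.

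Promoter sequence was read for the palindromic GR motif, GNACA and TGTNC with 3 free bases between them, which reads alike on both strands. RefSeq promoters of GRCm38.p6, 250 bases before to 50 after an annotated start, hold it in 145 of 27025 genes (0.537%). A gene can have several such starts, with 32851 promoters in all. Among tested genes with a promoter it was in 35 of 9122 (0.384%), among those lower in GRLKO in 8 of 721 (1.11%), among those higher in 2 of 679 (0.295%), and on the GR target list in 3 of 21 (14.3%). The matches in genes named here are shown on the strand of the gene, 5′ to 3′, with the palindrome in capitals, because they set genes that fell beside genes that were not called. A match describes the letters and does not show binding. Those of *Fam107a* (gene from 8296274 to 8318023) and *Sgk1* (21882184 to 21999903) lie at a start inside the gene. *Mt1* (chr8:94178987-94179015, plus strand), *Fam107a* (chr14:8309877-8309905, minus) and *Acnat2* (chr4:49408232-49408260, minus) fell, while *Sgk1* (chr10:21993694-21993722, plus) and *Gnmt* (chr17:46729126-46729154, minus) were not called.
Mt1: cactatagGGACATGATGTTCcacacgtc
Fam107a: ggtggcttGGACATGGTGTTCtgagtctc
Acnat2: acaaagcaGAACACAATGTTCtcttccaa
Sgk1: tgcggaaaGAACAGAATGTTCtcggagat
Gnmt: aggatggtGGACAGCGTGTACcgtacccg

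Leading genes were ranked by log2 fold change among called genes with a mean of at least 5 CPM in 1 genotype, more than 3 counts in a library of each genotype, no overlap, and a call in every fit that left out a liver, leaving out peroxisome, bile acid, clock and pancreas genes. The 12 largest falls so ranked had varied functions. *Fam107a* (ENSMUSG00000021750, chromosome 14, 8296274 to 8318023), an actin-associated protein, had 13.9, 17.4 and 13.2 CPM in WT and 0.786, 0.102 and 0.279 CPM in GRLKO livers (log2 fold change -5.23 ± 0.46, adjusted p = 0.00085). *Scara5*, a scavenger receptor that takes up ferritin, had 6.89, 13.5 and 9.53 CPM in WT and 0.786, 0 and 0 CPM in GRLKO livers, and *Srrm4*, a splicing regulator best known from neurons, had 8.11, 9.04 and 8.66 CPM in WT and 0.628, 0.768 and 0.615 CPM in GRLKO livers. Both were under 1 CPM in every GRLKO liver. *Eif4ebp3* (ENSMUSG00000090264), a repressor of cap-dependent translation, had 108, 148 and 125 CPM in WT and 4.71, 5.17 and 3.86 CPM in GRLKO livers (log2 fold change -4.79 ± 0.17, adjusted p = 5.05e-05), the lowest adjusted p of the named genes. *Lpin1* (ENSMUSG00000020593, chromosome 12, 16535669 to 16610966), the phosphatidate phosphatase lipin-1 that is also a coactivator of fat oxidation genes, had 429, 566 and 657 CPM in WT and 47.2, 14.9 and 38.1 CPM in GRLKO livers (log2 fold change -4.04 ± 0.42, adjusted p = 0.00149). *Acnat2*, an acyl-CoA amino acid N-acyltransferase, had 37.5, 17.9 and 47.1 CPM in WT and 1.89, 2.46 and 2.96 CPM in GRLKO livers (log2 fold change -3.81 ± 0.39, adjusted p = 0.00139). *Mt2*, the partner of *Mt1*, had 36.1, 19 and 31.7 CPM in WT and 2.46, 0.614 and 1.96 CPM in GRLKO livers (log2 fold change -4.11 ± 0.43, adjusted p = 0.00149). The other genes of the 12 are *Cyp17a1*, *Cdkn1a*, *Serpina3k*, *Igfbp1* and *Zbtb16*, and their log2 fold changes ran from -4.23 to -3.62.

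The 12 largest rises under the same limits included several genes scarce in WT livers. The largest was *Cyp2a4*, a steroid hydroxylase of the Cyp2a family, with 1.8, 2.61 and 32.9 CPM in WT and 1501, 1892 and 386 CPM in GRLKO livers (log2 fold change 6.63 ± 1.25, adjusted p = 0.0143). WT replicate 3 was the highest of its group. *Slc22a27*, a carrier of organic anions, had a log2 fold change of 3.56. *Gprc5b*, an orphan receptor, had 0.451, 0.382 and 0.205 CPM in WT and 5.92, 9.68 and 19.2 CPM in GRLKO livers (log2 fold change 5.07 ± 0.56, adjusted p = 0.0019). *Tcf24*, a basic helix-loop-helix factor, had 0.193, 0.318 and 0.102 CPM in WT and 7.23, 3.79 and 6.37 CPM in GRLKO livers (log2 fold change 4.82 ± 0.44, adjusted p = 0.000968). *Lgals1*, which encodes galectin-1, had 2.25, 2.61 and 2.66 CPM in WT and 12.2, 28.8 and 31.6 CPM in GRLKO livers (log2 fold change 3.26 ± 0.37, adjusted p = 0.00206). In each of *Gprc5b*, *Tcf24* and *Lgals1* the lowest GRLKO liver lay several-fold above the highest WT liver. *Pparg* (ENSMUSG00000000440, chromosome 6, 115360951 to 115490399), the nuclear receptor that drives fat storage genes, had 4.7, 2.8 and 1.33 CPM in WT and 29.7, 23.5 and 29.2 CPM in GRLKO livers (log2 fold change 3.25 ± 0.36, adjusted p = 0.00186). *Hamp2*, a hepcidin paralog, had 4.83, 11.1 and 19.1 CPM in WT and 145, 313 and 194 CPM in GRLKO livers (log2 fold change 4.20 ± 0.51, adjusted p = 0.00256). *Tpm2*, a tropomyosin of muscle, had 1.61, 0.764 and 1.43 CPM in WT and 21.3, 8.24 and 6.04 CPM in GRLKO livers (log2 fold change 3.21 ± 0.54, adjusted p = 0.00981), and its highest value was in GRLKO replicate 1, the liver with the private muscle genes. The part of muscle transcripts in its level was not tested.

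In some called genes the fold moved by more than 1.5 times when 1 liver was left out. Without WT replicate 3 the log2 fold change was 9.15 for *Cyp2a4* (6.63 with all livers), 10.27 for *Cyp2b13* (5.90), 5.73 for *Slc22a26* (4.49) and -3.34 for *Cyp17a1* (-4.23). Without WT replicate 2 it was -2.94 for *Igfbp1* (-3.64), -3.74 for *Mup7* (-5.01), -2.49 for *Mup11* (-3.87), -1.70 for *Mup1* (-2.67) and -2.07 for *Slco1a1* (-4.04). Without GRLKO replicate 1 it was 2.48 for *Tpm2* (3.21), -6.25 for *Fam107a* (-5.23), -10.46 for *Scara5* (-5.20), -6.45 for *Sult1e1* (-5.63) and -4.73 for *Slco1a1*, then with an adjusted p of 0.0797. Without GRLKO replicate 2 it was -4.60 for *Scara5* and -5.73 for *Mup7*. In all of these the direction was that of the main fit. No size can be read from -10.46, because *Scara5* was at 0 CPM in GRLKO replicates 2 and 3. The value of 10.27 likewise rests on 0.258 and 0 CPM of *Cyp2b13* in WT replicates 1 and 2.

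Called genes of glycolysis all fell. Of 29 genes of glycolysis and pyruvate handling tested, 0 rose, 9 fell and 20 were not called (median -0.31, 31.0% called), or 5 fell without WT replicate 3. The bifunctional enzymes that set fructose 2,6-bisphosphate, the switch between glycolysis and glucose production, fell together. *Pfkfb3* (ENSMUSG00000026773) had 23.4, 40.5 and 26.5 CPM in WT and 4.09, 1.48 and 3.8 CPM in GRLKO livers (log2 fold change -3.27 ± 0.36, adjusted p = 0.00193). *Pfkfb1*, the liver isoform, had 40.2, 55.2 and 41.8 CPM in WT and 13.1, 14.8 and 14.2 CPM in GRLKO livers (log2 fold change -1.70 ± 0.14, adjusted p = 0.00072), and *Pfkfb2* had 36.4, 25.5 and 28 CPM in WT and 10.3, 6.45 and 10.4 CPM in GRLKO livers (log2 fold change -1.73 ± 0.21, adjusted p = 0.00284). *Khk*, the fructose kinase, fell less, from 126, 104 and 113 CPM to 66.1, 73.8 and 70.1 CPM. All 4 separated the genotypes without overlap and were called in each fit that left out a liver. The glucose transporter *Slc2a2* was not called, with 538, 510 and 535 CPM in WT and 551, 569 and 558 CPM in GRLKO livers.

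Gluconeogenic genes that were called went both ways. Of 17 tested, 3 rose, 4 fell and 10 were not called (median 0.02, 41.2% called), with 1 rise without WT replicate 3 and 2 falls without GRLKO replicate 3. *Slc37a4* (ENSMUSG00000032114), which carries glucose 6-phosphate into the endoplasmic reticulum, had 323, 303 and 339 CPM in WT and 138, 141 and 136 CPM in GRLKO livers (log2 fold change -1.22 ± 0.08, adjusted p = 0.0003). *Ppargc1a*, a coactivator induced by fasting, had 48, 64.9 and 59.9 CPM in WT and 34.2, 25.3 and 28.5 CPM in GRLKO livers (log2 fold change -0.97 ± 0.15, adjusted p = 0.00732). The mitochondrial dicarboxylate carrier *Slc25a10* rose, with 111, 101 and 111 CPM in WT and 199, 309 and 272 CPM in GRLKO livers (log2 fold change 1.27 ± 0.16, adjusted p = 0.00301). The catalytic subunit *G6pc* overlapped between genotypes, with 547, 1541 and 856 CPM in WT and 750, 497 and 747 CPM in GRLKO livers. *Pck1*, the enzyme often taken as the mark of gluconeogenesis, had 6624, 6638 and 7111 CPM in WT and 4826, 5502 and 5605 CPM in GRLKO livers (log2 fold change -0.35 ± 0.08, adjusted p = 0.0312), a small fall that was called in none of the fits that left out a liver, with adjusted p 0.104 without WT replicate 3. Among 20 glycogen genes 2 rose, 2 fell and 16 were not called (median 0.17, 20% called), and the rises numbered 0 without WT replicate 3 and 1 without WT replicate 1 or any GRLKO liver. *Ppp1r3b*, the subunit that brings protein phosphatase 1 to glycogen, had 269, 245 and 290 CPM in WT and 99.5, 92.3 and 117 CPM in GRLKO livers (log2 fold change -1.38 ± 0.12, adjusted p = 0.000777), and the phosphorylase *Pygl* had 325, 273 and 308 CPM in WT and 217, 207 and 214 CPM in GRLKO livers (log2 fold change -0.51 ± 0.09, adjusted p = 0.0118). Glycogen synthase *Gys2* overlapped between the groups.

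Called genes of amino acid breakdown and of nitrogen disposal mostly fell. Of 66 genes of amino acid catabolism, 3 rose, 16 fell and 47 were not called (median -0.08, 28.8% called), and falls numbered 10 without WT replicate 3 and 10 without GRLKO replicate 1, while rises numbered 0 without WT replicate 2 and 1 without GRLKO replicate 3. *Mat1a* (ENSMUSG00000037798), which makes S-adenosylmethionine, had 5841, 6050 and 6395 CPM in WT and 2530, 3037 and 2381 CPM in GRLKO livers (log2 fold change -1.20 ± 0.11, adjusted p = 0.000866). *Cdo1*, the first enzyme of cysteine breakdown, had 1755, 1653 and 1831 CPM in WT and 961, 1009 and 959 CPM in GRLKO livers (log2 fold change -0.84 ± 0.08, adjusted p = 0.00105). *Acmsd*, which diverts tryptophan breakdown from NAD synthesis, had 40.4, 56.8 and 52 CPM in WT and 15.9, 17.4 and 19.7 CPM in GRLKO livers (log2 fold change -1.50 ± 0.15, adjusted p = 0.00119). These 3 fell in every fit that left out a liver. *Bcat2*, a branched-chain aminotransferase mainly of other tissues, had 3.16, 4.65 and 5.59 CPM in WT livers and 0 in all GRLKO livers. That is at least 28-fold lower when 3 counts per library are set as the floor. On control diet at ZT12 its log2 fold change was 0.42 (adjusted p = 0.948 by the same edgeR test). The difference between diets was not called (adjusted p = 0.202). Whether the division of estimated counts shaped these zeros was not tested. *Hpd*, of tyrosine breakdown, was not called, with 2365, 2309 and 2644 CPM in WT and 1894, 2486 and 2086 CPM in GRLKO livers.

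In the urea cycle 5 of 9 genes tested fell, 1 rose and 3 were not called (median -0.68, 66.7% called), with 4 falls and the rise called in every fit that left out a liver. *Cps1*, the entry enzyme, had 6350, 7776 and 7356 CPM in WT and 4581, 4007 and 3869 CPM in GRLKO livers (log2 fold change -0.79 ± 0.11, adjusted p = 0.00408). *Asl*, argininosuccinate lyase, had 1211, 1093 and 1362 CPM in WT and 465, 625 and 473 CPM in GRLKO livers (log2 fold change -1.23 ± 0.14, adjusted p = 0.0022). The ornithine carrier *Slc25a15* had 393, 499 and 473 CPM in WT and 253, 285 and 314 CPM in GRLKO livers (log2 fold change -0.68 ± 0.12, adjusted p = 0.0122). Each of these genes was lower in all 3 GRLKO livers than in any WT liver. *Otc*, the enzyme that makes citrulline, was not called, with 412, 485 and 463 CPM in WT and 462, 471 and 448 CPM in GRLKO livers. The riser was *Aqp8*, a channel for water and ammonia, with 16, 10.3 and 18.3 CPM in WT and 57.5, 75.1 and 62.4 CPM in GRLKO livers (log2 fold change 2.12 ± 0.21, adjusted p = 0.00125).

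Among 27 amino acid transporters 1 rose, 5 fell and 21 were not called (median -0.08, 22.2% called), and rises numbered 2 without WT replicate 2, WT replicate 3 or GRLKO replicate 2. *Slc43a1*, a carrier of large neutral amino acids, had 11.2, 15.2 and 15.8 CPM in WT and 2.09, 3.53 and 2.01 CPM in GRLKO livers (log2 fold change -2.46 ± 0.26, adjusted p = 0.00148). *Slc3a1*, the heavy chain of the cystine carrier, had 38.6, 35.6 and 53.3 CPM in WT and 14.1, 5.68 and 7.66 CPM in GRLKO livers (log2 fold change -2.21 ± 0.32, adjusted p = 0.00579). *Slc38a2*, of the system A family, had 300, 334 and 269 CPM in WT and 159, 123 and 174 CPM in GRLKO livers (log2 fold change -0.99 ± 0.15, adjusted p = 0.00624). The taurine carrier *Slc6a6* rose, with 146, 101 and 105 CPM in WT and 244, 206 and 224 CPM in GRLKO livers (log2 fold change 0.94 ± 0.16, adjusted p = 0.00912).

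Called genes of lipid synthesis rose more often than they fell. Of 33 genes of fatty acid and triglyceride synthesis, 15 rose, 5 fell and 13 were not called (median 0.30, 60.6% called), and 10 rises and 1 fall were called in every fit that left out a liver. Falls numbered 3 without WT replicate 2, WT replicate 3 or GRLKO replicate 3 and 2 without GRLKO replicate 1 or 2. *Acly*, which makes cytosolic acetyl-CoA, had 178, 156 and 185 CPM in WT and 344, 323 and 352 CPM in GRLKO livers (log2 fold change 0.97 ± 0.09, adjusted p = 0.00118). *Elovl5*, which lengthens polyunsaturated fatty acids, had 153, 191 and 160 CPM in WT and 367, 432 and 477 CPM in GRLKO livers (log2 fold change 1.34 ± 0.13, adjusted p = 0.00122). *Me1*, malic enzyme, a source of NADPH for synthesis, had 87.8, 83.2 and 103 CPM in WT and 210, 139 and 245 CPM in GRLKO livers (log2 fold change 1.12 ± 0.20, adjusted p = 0.0123), and *Gpat3*, an acyltransferase of glycerolipid synthesis, had 5.92, 3.31 and 5.28 CPM in WT and 12.5, 14 and 20.2 CPM in GRLKO livers (log2 fold change 1.68 ± 0.26, adjusted p = 0.00742). The genotypes did not overlap in any of the 4. The carbohydrate-response factor *Mlxipl* was not called, with 308, 238 and 267 CPM in WT and 264, 286 and 285 CPM in GRLKO livers, nor was *Dgat2*, with 548, 473 and 604 CPM in WT and 444, 604 and 506 CPM in GRLKO livers. *Lpin1*, the most lowered member, stands at the step where phosphatidate becomes diacylglycerol.

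Lipid droplet and lipoprotein genes that were called were split. Of 47 tested, 10 rose, 8 fell and 29 were not called (median 0.10, 38.3% called), with 6 rises without WT replicate 2, GRLKO replicate 2 or GRLKO replicate 3. *Plin5* (ENSMUSG00000011305), a droplet coat protein that couples droplets to mitochondria, had 118, 86.2 and 123 CPM in WT and 17.9, 15.9 and 25.3 CPM in GRLKO livers (log2 fold change -2.47 ± 0.21, adjusted p = 0.000798). *Apoa4* had 201, 147 and 222 CPM in WT and 28.5, 47.6 and 37 CPM in GRLKO livers (log2 fold change -2.33 ± 0.22, adjusted p = 0.00113), and *Apoa1*, the main protein of high-density lipoprotein, had 3929, 5089 and 4800 CPM in WT and 1975, 1869 and 1683 CPM in GRLKO livers (log2 fold change -1.32 ± 0.12, adjusted p = 0.00088). *Angptl4*, a secreted inhibitor of lipoprotein lipase, had 235, 259 and 226 CPM in WT and 65.6, 62.1 and 80.5 CPM in GRLKO livers (log2 fold change -1.79 ± 0.12, adjusted p = 0.000329). Those 4 fell, and the next 3 rose. *Vldlr*, a lipoprotein receptor scarce in normal liver, had 6.57, 4.33 and 8.76 CPM in WT and 50.8, 45.5 and 55.2 CPM in GRLKO livers (log2 fold change 2.93 ± 0.23, adjusted p = 0.000528). *Fitm1*, an inducer of fat storage, had 5.09, 4.84 and 4.77 CPM in WT and 18.3, 40.3 and 29.4 CPM in GRLKO livers (log2 fold change 2.58 ± 0.28, adjusted p = 0.0018), and *Pltp*, the phospholipid transfer protein, had 13.1, 8.72 and 11.9 CPM in WT and 31.8, 50.8 and 60.6 CPM in GRLKO livers (log2 fold change 2.08 ± 0.26, adjusted p = 0.00284). *Apoe* and *Apoa2* were not called and overlapped between genotypes.

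Of 44 genes of mitochondrial fat oxidation and ketogenesis, 6 rose, 1 fell and 37 were not called (median 0.09, 15.9% called, close to the 15.3% over all genes), 5 of the rises in every fit that left out a liver, and the fall was lost in all of those fits but the one without WT replicate 1. *Cd36*, the fatty acid translocase, had 12.2, 12.5 and 20.7 CPM in WT and 43.6, 67.9 and 80.8 CPM in GRLKO livers (log2 fold change 2.07 ± 0.28, adjusted p = 0.00438). *Bdh1*, the last enzyme of ketone body synthesis, had 124, 134 and 123 CPM in WT and 295, 319 and 345 CPM in GRLKO livers (log2 fold change 1.33 ± 0.09, adjusted p = 0.00035). *Aldh3a2*, which oxidizes fatty aldehydes, had 300, 279 and 314 CPM in WT and 650, 662 and 774 CPM in GRLKO livers (log2 fold change 1.22 ± 0.10, adjusted p = 0.000729). Of 12 acyl-CoA thioesterases, which split fatty acyl-CoA, 4 rose, 0 fell and 8 were not called (median 0.38, 33.3% called), with the 4 rises in every fit that left out a liver. The values of *Acot4* were 229, 212 and 248 CPM in WT and 622, 777 and 721 CPM in GRLKO livers (log2 fold change 1.62 ± 0.11, adjusted p = 0.00035), and those of *Acot2* were 4.7, 4.14 and 6.05 CPM in WT and 12, 17.4 and 21.9 CPM in GRLKO livers (log2 fold change 1.78 ± 0.25, adjusted p = 0.00467). Thioesterase genes of this cluster are alike in sequence, so that the division of estimated counts among them is uncertain.

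Cholesterol synthesis genes that were called changed in opposite directions. Of 26 genes 5 rose, 4 fell and 17 were not called (median -0.04, 34.6% called), with 3 rises without WT replicate 2 or WT replicate 3. *Sc5d* (ENSMUSG00000032018), a late desaturase of the pathway, had 158, 165 and 192 CPM in WT and 540, 543 and 513 CPM in GRLKO livers (log2 fold change 1.63 ± 0.10, adjusted p = 0.00021). *Fdps*, which makes farnesyl pyrophosphate, and *Sqle*, the squalene epoxidase, fell: *Fdps* had 240, 146 and 202 CPM in WT and 76.7, 82.2 and 105 CPM in GRLKO livers (log2 fold change -1.16 ± 0.20, adjusted p = 0.0101), and *Sqle* had 57.5, 35.6 and 53.8 CPM in WT and 22.9, 24.2 and 25.4 CPM in GRLKO livers (log2 fold change -1.02 ± 0.18, adjusted p = 0.0103). The 2 INSIG genes, which hold the sterol sensor in the endoplasmic reticulum, went opposite ways. *Insig1* rose, with 312, 243 and 283 CPM in WT and 440, 502 and 448 CPM in GRLKO livers (log2 fold change 0.73 ± 0.11, adjusted p = 0.00735), and *Insig2* fell, with 196, 112 and 161 CPM in WT and 50.1, 59.3 and 71.4 CPM in GRLKO livers (log2 fold change -1.38 ± 0.22, adjusted p = 0.00779).

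Called female-biased genes, part of the sex-biased genes of mouse liver that follow growth hormone release, mostly rose in these males. Of 29 female-biased genes tested, 15 rose, 3 fell and 11 were not called (median 1.40, 62.1% called), with 17 rises without WT replicate 3. *Rtn4* (ENSMUSG00000020458), a protein that shapes the endoplasmic reticulum, had 41.8, 50.8 and 47.8 CPM in WT and 101, 112 and 95.9 CPM in GRLKO livers (log2 fold change 1.14 ± 0.11, adjusted p = 0.00103). *Slc22a26*, an organic anion carrier, had 4.77, 2.23 and 17.2 CPM in WT and 193, 172 and 192 CPM in GRLKO livers (log2 fold change 4.49 ± 0.63, adjusted p = 0.00473), and *Prlr*, the prolactin receptor, had 136, 140 and 191 CPM in WT and 299, 310 and 272 CPM in GRLKO livers (log2 fold change 0.92 ± 0.14, adjusted p = 0.00781). *Cyp2b13* had 0.258, 0 and 7.58 CPM in WT and 79.8, 216 and 207 CPM in GRLKO livers, with WT replicate 3 the highest of its group in this gene and in *Slc22a26*. *Cyp17a1*, the steroid 17-hydroxylase, went the other way, with 14, 10.9 and 43.7 CPM in WT livers and a mean of 1.22 CPM in GRLKO livers (log2 fold change -4.23 ± 0.60, adjusted p = 0.00518). *Cyp2b9* was not called, with 74.2, 17.8 and 324 CPM in WT and 367, 350 and 751 CPM in GRLKO livers, but had an adjusted p of 0.036 without WT replicate 3. The Cyp2a, Cyp2b and Slc22a families hold near-identical paralogs, so that the division of counts among members is uncertain.

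Of 30 male-biased genes, 2 rose, 6 fell and 22 were not called (median -0.77, 26.7% called), and these calls hung on single livers: 0 fell without GRLKO replicate 1 or GRLKO replicate 3, and 1 rose without WT replicate 1 or GRLKO replicate 2. The major urinary protein *Mup7* had 190, 1836 and 508 CPM in WT and 20.9, 46.8 and 10.7 CPM in GRLKO livers (log2 fold change -5.01 ± 0.96, adjusted p = 0.015), and *Mup1* had 36.8, 164 and 46.6 CPM in WT and 11.2, 20 and 7.43 CPM in GRLKO livers (log2 fold change -2.67 ± 0.64, adjusted p = 0.0315). WT replicate 2 was the highest liver in both, and the GRLKO livers were the lowest. Without GRLKO replicate 1 the adjusted p was 0.0594 for *Mup7* and 0.0977 for *Mup1*, and without GRLKO replicate 3 it was 0.057 and 0.104. For *Mup1* it was 0.0557 without GRLKO replicate 2. Sequences of this family are nearly identical, and its counts are uncertain for that reason too. *Alas2*, the erythroid form of the first heme enzyme, rose in every fit that left out a liver, with 31.2, 36.4 and 21.1 CPM in WT and 69.8, 68.7 and 72.3 CPM in GRLKO livers (log2 fold change 1.25 ± 0.18, adjusted p = 0.00573). The 6 erythroid markers, *Alas2* among them, summed to 538, 416 and 323 CPM in WT and 737, 530 and 407 CPM in GRLKO livers. Of 5 tested it was the only gene called, and the 4 hemoglobin genes were not called. Whether its rise lay in hepatocytes or in blood cells was not tested.

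**Figure D3:**
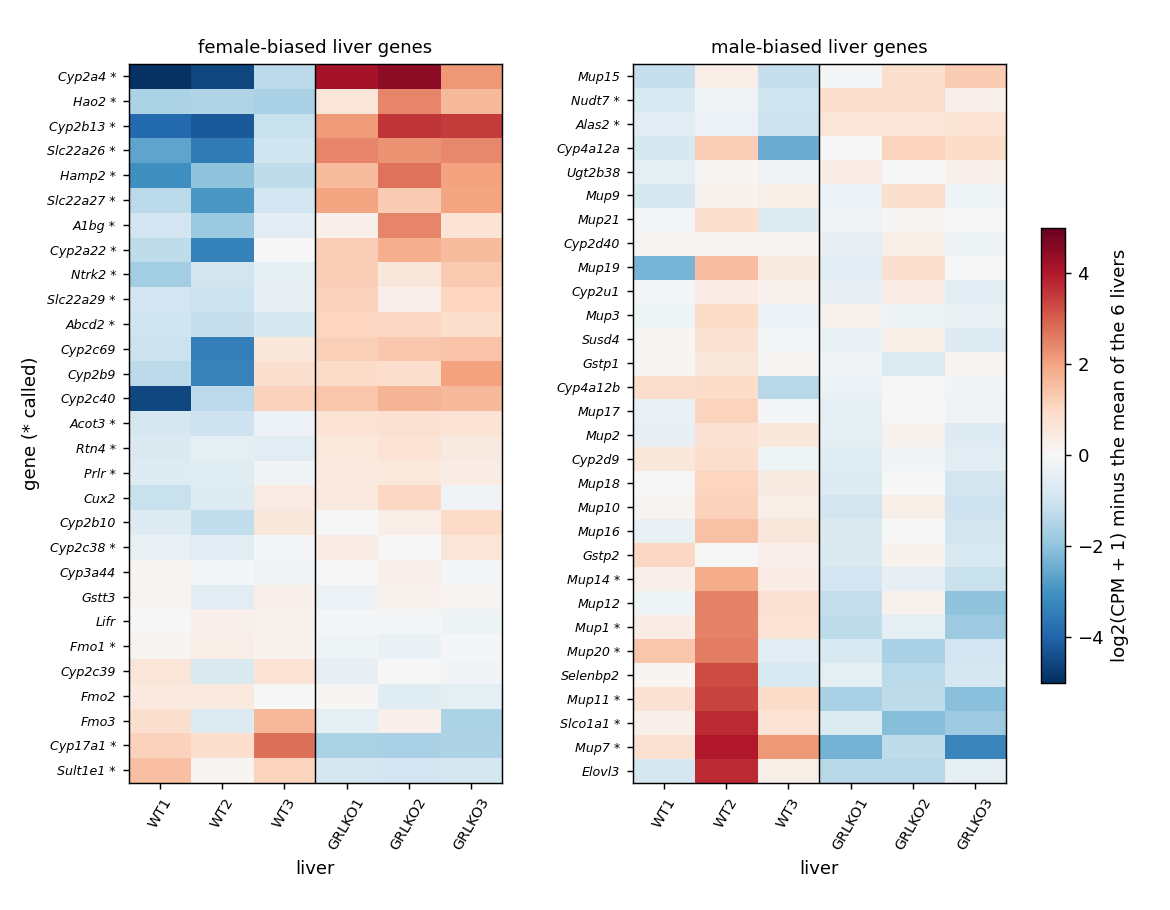
Heat maps of the 29 female-biased (left) and 30 male-biased (right) genes tested, sorted by log2 fold change, in 3 WT and 3 GRLKO livers at ZT12 on caloric restriction, with color for log2(CPM + 1) minus the mean of the 6 livers and an asterisk for called genes. WT replicate 2 stands above the other livers in *Mup7* (1836 CPM) and *Mup11* (1269 CPM).

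Among enzymes that clear drugs and steroids, called genes went both ways. Of 56 cytochrome P450 and reductase genes, 8 rose, 8 fell and 40 were not called (median -0.04, 28.6% called). Rises numbered 5 without WT replicate 1, GRLKO replicate 1 or GRLKO replicate 2 and 2 without GRLKO replicate 3, and falls 5 without WT replicate 1. *Cyp2a4* and *Cyp2b13* are rises that were called in every fit that left out a liver. *Por*, the reductase that passes electrons to all microsomal P450 enzymes, had 1131, 996 and 1121 CPM in WT and 506, 620 and 534 CPM in GRLKO livers (log2 fold change -0.97 ± 0.11, adjusted p = 0.00182). *Cyp4f14* had 112, 102 and 99.2 CPM in WT and 64.2, 65.7 and 45.4 CPM in GRLKO livers (log2 fold change -0.84 ± 0.15, adjusted p = 0.0112), and *Cyp3a11*, the main drug-clearing form, was not called, with 6670, 8381 and 6706 CPM in WT and 6799, 6792 and 7346 CPM in GRLKO livers.

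Of 69 conjugating and other drug-metabolizing enzymes, 19 rose, 12 fell and 38 were not called (median 0.10, 44.9% called). Rises numbered 12 without GRLKO replicate 3, and falls 6 without WT replicate 3 and 7 without GRLKO replicate 1 or GRLKO replicate 3. *Fmo5* (ENSMUSG00000028088), a flavin monooxygenase, had 4177, 3304 and 3803 CPM in WT and 857, 790 and 773 CPM in GRLKO livers (log2 fold change -2.22 ± 0.11, adjusted p = 0.000128). *Sult1d1*, a sulfotransferase of catechols, had 410, 356 and 437 CPM in WT and 144, 119 and 145 CPM in GRLKO livers (log2 fold change -1.56 ± 0.12, adjusted p = 0.000528), and the carboxylesterase *Ces3b* had 186, 335 and 259 CPM in WT and 95, 119 and 79.4 CPM in GRLKO livers (log2 fold change -1.41 ± 0.23, adjusted p = 0.00912). No GRLKO liver reached a WT liver in these 3. *Gsta1* (ENSMUSG00000074183), a glutathione transferase, had 16.4, 10.8 and 12.2 CPM in WT and 87.3, 122 and 168 CPM in GRLKO livers (log2 fold change 3.26 ± 0.27, adjusted p = 0.000749). *Ugt2b35*, a glucuronosyltransferase, had 119, 125 and 86.1 CPM in WT and 313, 249 and 311 CPM in GRLKO livers (log2 fold change 1.40 ± 0.16, adjusted p = 0.00219). The Gst, Ugt, Sult and Ces families hold close paralogs among which counts are divided with some uncertainty.

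Of 36 genes of the NRF2 and antioxidant list, 9 rose, 1 fell and 26 were not called (median 0.20, 27.8% called), with 5 rises without WT replicate 3, 6 without WT replicate 2 and 4 without GRLKO replicate 3. *Ftl1*, the light chain of ferritin, had 2601, 1951 and 2115 CPM in WT and 3580, 4292 and 4511 CPM in GRLKO livers (log2 fold change 0.89 ± 0.14, adjusted p = 0.00676), and catalase (*Cat*) had 2216, 2173 and 2244 CPM in WT and 2973, 3299 and 3197 CPM in GRLKO livers (log2 fold change 0.51 ± 0.07, adjusted p = 0.00569). Both rises were called in each of the 6 fits. Ferritin's heavy chain *Fth1* was not called, with 1434, 1208 and 1334 CPM in WT and 1305, 1371 and 1541 CPM in GRLKO livers. Among 31 carriers of organic anions and cations 11 rose, 1 fell and 19 were not called (median 0.26, 38.7% called), with 7 rises without WT replicate 3 and 0 falls without any 1 of the GRLKO livers. *Abcc4*, an efflux pump of conjugates, had 3.41, 2.29 and 4.51 CPM in WT and 12.6, 11.5 and 16.2 CPM in GRLKO livers (log2 fold change 1.97 ± 0.25, adjusted p = 0.00347), and *Abcb1a*, a multidrug efflux pump that also moves glucocorticoids, had 15.4, 16.6 and 22.8 CPM in WT and 46.1, 50.8 and 45.1 CPM in GRLKO livers (log2 fold change 1.37 ± 0.15, adjusted p = 0.00186). The uptake carrier *Slco1b2* was not called, with 937, 930 and 911 CPM in WT and 1008, 903 and 1109 CPM in GRLKO livers.

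Called genes of acute phase proteins mostly fell. Of 42 tested, 1 rose, 16 fell and 25 were not called (median -0.37, 40.5% called), or 10 fell without GRLKO replicate 3. *Serpina3k* (ENSMUSG00000058207, chromosome 12, 104338486 to 104346144), a serine protease inhibitor, had 5693, 9813 and 6754 CPM in WT and 627, 676 and 362 CPM in GRLKO livers (log2 fold change -3.74 ± 0.30, adjusted p = 0.00072), and neighbouring serpin genes are alike enough that its counts are uncertain. *Cp*, ceruloplasmin, had 1016, 1038 and 962 CPM in WT and 605, 493 and 506 CPM in GRLKO livers (log2 fold change -0.91 ± 0.10, adjusted p = 0.00197). *Lbp*, which binds bacterial lipopolysaccharide, had 124, 84.6 and 106 CPM in WT and 54.4, 51.6 and 56.9 CPM in GRLKO livers (log2 fold change -0.95 ± 0.14, adjusted p = 0.00588), and *Rbp4*, the retinol carrier, had 4496, 4116 and 4351 CPM in WT and 2862, 3277 and 2982 CPM in GRLKO livers (log2 fold change -0.51 ± 0.08, adjusted p = 0.00865). No GRLKO liver reached the lowest WT liver in any of the 4. *Orm2*, an orosomucoid, was the single riser, with 34.3, 75.9 and 55.8 CPM in WT and 174, 147 and 132 CPM in GRLKO livers (log2 fold change 1.45 ± 0.27, adjusted p = 0.0128). *Hamp*, hepcidin, and *Trf*, transferrin, were not called.

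Called genes of complement and coagulation fell more often than they rose. Of 49 tested, 3 rose, 8 fell and 38 were not called (median -0.06, 22.4% called). Falls numbered 5 without WT replicate 1 or GRLKO replicate 1, 4 without WT replicate 2 or WT replicate 3, and 3 without GRLKO replicate 3. *F9*, coagulation factor IX, had 201, 235 and 228 CPM in WT and 138, 137 and 135 CPM in GRLKO livers (log2 fold change -0.69 ± 0.09, adjusted p = 0.00302). *C8b*, of the terminal complement complex, had 103, 167 and 87 CPM in WT and 46.5, 41.1 and 36.6 CPM in GRLKO livers (log2 fold change -1.52 ± 0.24, adjusted p = 0.00779). The 3 risers were the C1q subunits *C1qa*, *C1qb* and *C1qc*, which macrophages make and which are also on the macrophage list, whose sum was higher in GRLKO livers. Without WT replicate 3, GRLKO replicate 1 or GRLKO replicate 3 the rise was called in *C1qc* alone. The part of macrophage transcripts in these rises was not tested.

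Rises among interferon and inflammation genes depended on single livers. Of 47 tested, 8 rose, 2 fell and 37 were not called (median 0.47, 21.3% called), and rises numbered 4 without WT replicate 1, WT replicate 2 or GRLKO replicate 2, 3 without GRLKO replicate 1, and 1 without WT replicate 3 or GRLKO replicate 3. Macrophage markers, whose sums are given above with the other cell types, were higher in the same livers, and their part was not tested. The falls were firm. *Il1r1* (ENSMUSG00000026072), the receptor of interleukin-1, had 175, 148 and 168 CPM in WT and 20.3, 11.9 and 16.4 CPM in GRLKO livers (log2 fold change -3.34 ± 0.19, adjusted p = 0.000178). *Il6ra*, the receptor subunit of interleukin-6, had 47.4, 36.2 and 44.2 CPM in WT and 16, 16.8 and 20.9 CPM in GRLKO livers (log2 fold change -1.25 ± 0.14, adjusted p = 0.00199). Both were lower in all 3 GRLKO livers in every fit.

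Among secreted regulators of the liver, called genes went both ways. Of 36 hepatokines and secreted regulators, 5 rose, 8 fell and 23 were not called (median -0.08, 36.1% called). *Serpina6* (ENSMUSG00000060807, chromosome 12, 103646630 to 103657212), the corticosteroid-binding globulin that carries glucocorticoids in blood, had 345, 382 and 527 CPM in WT and 1992, 1701 and 1752 CPM in GRLKO livers (log2 fold change 2.12 ± 0.17, adjusted p = 0.000656). *Serpina7*, the thyroxine-binding globulin, had 6.5, 12.9 and 12.6 CPM in WT and 37.7, 25.8 and 25.7 CPM in GRLKO livers (log2 fold change 1.47 ± 0.27, adjusted p = 0.0129), and *Inhbe*, an activin subunit, had 17.1, 12.3 and 13.4 CPM in WT and 26.8, 30.6 and 35.6 CPM in GRLKO livers (log2 fold change 1.12 ± 0.15, adjusted p = 0.00456). All 3 rose in every fit that left out a liver. *Tsku*, the secreted protein tsukushi, had 92.9, 72 and 59.9 CPM in WT and 13.3, 10.1 and 17.8 CPM in GRLKO livers (log2 fold change -2.45 ± 0.24, adjusted p = 0.00118). On the list of 17 genes of glucocorticoid handling, 3 rose, 2 fell and 12 were not called (median 0.07, 29.4% called), and *Nr3c1* itself is among the falls. *Hsd11b1*, which regenerates active glucocorticoid, was not called, with 747, 733 and 912 CPM in WT and 718, 706 and 697 CPM in GRLKO livers. *Nr3c2*, the mineralocorticoid receptor that binds the same hormones, had 5.34, 7.89 and 5.84 CPM in WT and 12.2, 12.8 and 11 CPM in GRLKO livers (log2 fold change 0.91 ± 0.17, adjusted p = 0.0135), with adjusted p 0.0536 without WT replicate 3.

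Called genes of growth arrest mostly fell, and those of cell division went both ways. Of 28 growth arrest and p53 target genes, 1 rose, 8 fell and 19 were not called (median -0.25, 32.1% called), with 5 falls in every fit that left out a liver. The rise, *Gadd45a*, was called without WT replicate 1 and in none of the other 5 fits. *Trp53inp1*, which links p53 to autophagy, had 165, 182 and 133 CPM in WT and 64.2, 56 and 76.3 CPM in GRLKO livers (log2 fold change -1.29 ± 0.15, adjusted p = 0.00248), and *Ccng2*, an unconventional cyclin of quiescent cells, had 28.7, 26 and 29.7 CPM in WT and 17.3, 15.6 and 19.6 CPM in GRLKO livers (log2 fold change -0.68 ± 0.11, adjusted p = 0.00767). *Gadd45b*, a stress sensor, had 3.61, 4.14 and 2.87 CPM in WT and 0.89, 0.922 and 1.34 CPM in GRLKO livers (log2 fold change -1.74 ± 0.28, adjusted p = 0.00779). Of 27 cell cycle genes, 2 rose, 3 fell and 22 were not called (median 0.01, 18.5% called), with 1 fall without WT replicate 3, GRLKO replicate 2 or GRLKO replicate 3. *Ccnd1*, the cyclin of entry into the cycle, had 5.8, 7.19 and 9.89 CPM in WT and 19.2, 26.8 and 21.5 CPM in GRLKO livers (log2 fold change 1.55 ± 0.21, adjusted p = 0.00427), and *Cdk6*, its kinase partner, had 21.1, 20 and 15.1 CPM in WT and 35, 30 and 33.9 CPM in GRLKO livers (log2 fold change 0.82 ± 0.14, adjusted p = 0.00933). *Rrm2* (ENSMUSG00000020649), the ribonucleotide reductase subunit, had 9.47, 8.08 and 8.97 CPM in WT and 0.995, 1.08 and 0.95 CPM in GRLKO livers (log2 fold change -3.12 ± 0.18, adjusted p = 0.000178). *Pcna* was not called, with 30.8, 28 and 26.5 CPM in WT and 21.9, 22.9 and 26.5 CPM in GRLKO livers.

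The insulin and FoxO signaling genes that were called went both ways, and no rise was called in every fit that left out a liver. Of 34 tested, 2 rose, 5 fell and 27 were not called (median 0.03, 20.6% called). Falls numbered 3 without any 1 of the GRLKO livers, and rises 1 without WT replicate 1 or WT replicate 2 and 0 without WT replicate 3 or GRLKO replicate 3. *Foxo1*, the fasting factor of gluconeogenesis, had 97, 108 and 112 CPM in WT and 49.8, 57.3 and 64 CPM in GRLKO livers (log2 fold change -0.89 ± 0.11, adjusted p = 0.00331), and *Foxo3* had 86, 97.2 and 91.6 CPM in WT and 61.1, 68 and 63 CPM in GRLKO livers (log2 fold change -0.52 ± 0.09, adjusted p = 0.00918). The insulin receptor *Insr* was not called, with 171, 207 and 202 CPM in WT and 205, 196 and 194 CPM in GRLKO livers. Of 24 genes of the growth hormone and IGF axis, 2 rose, 2 fell and 20 were not called (median -0.01, 16.7% called), and falls numbered 1 without GRLKO replicate 2 or GRLKO replicate 3, while rises numbered 1 in every fit but the one without WT replicate 2. *Igf1* was not called, with 650, 838 and 758 CPM in WT and 616, 608 and 502 CPM in GRLKO livers.

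Genes that govern protein synthesis were read in a pair of lists. Of 33 mTORC1 regulators, 1 rose, 3 fell and 29 were not called (median -0.01, 12.1% called). The rise was lost without WT replicate 3, GRLKO replicate 2 or GRLKO replicate 3, and falls numbered 2 in every fit but the one without WT replicate 1. *Ddit4* and *Eif4ebp3* are the falls called in all of these fits. Of 46 ribosome biogenesis genes, 0 rose, 10 fell and 36 were not called (median -0.33, 21.7% called), and falls numbered 6 without WT replicate 1, 3 without WT replicate 2, and 5, 4 and 3 without GRLKO replicates 1, 2 and 3. *Nop56*, a core protein of box C/D particles, had 36.1, 32.3 and 25.6 CPM in WT and 17.8, 17.2 and 19 CPM in GRLKO livers (log2 fold change -0.80 ± 0.13, adjusted p = 0.00915), and *Rrs1*, an assembly factor of the large subunit, had 15.7, 15.3 and 14.5 CPM in WT and 9.53, 7.99 and 8.72 CPM in GRLKO livers (log2 fold change -0.80 ± 0.11, adjusted p = 0.00426). Both were called in each of the 6 fits.

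Of 63 autophagy and lysosome genes, 4 rose, 6 fell and 53 were not called (median -0.05, 15.9% called). Falls numbered 3 without WT replicate 1, WT replicate 2, GRLKO replicate 2 or GRLKO replicate 3. Rises numbered 1 without WT replicate 2, 2 without GRLKO replicate 1 and 0 without WT replicate 3, GRLKO replicate 2 or GRLKO replicate 3. *Map1lc3b*, which coats autophagosomes, had 192, 184 and 186 CPM in WT and 104, 120 and 112 CPM in GRLKO livers (log2 fold change -0.74 ± 0.08, adjusted p = 0.00195), and *Bnip3*, a receptor of mitophagy, had 542, 460 and 530 CPM in WT and 342, 350 and 340 CPM in GRLKO livers (log2 fold change -0.57 ± 0.09, adjusted p = 0.00775). The lysosomal membrane protein *Lamp1* was not called, with 677, 602 and 622 CPM in WT and 581, 593 and 598 CPM in GRLKO livers. Of 37 genes of the integrated stress and unfolded protein responses, 1 rose, 3 fell and 33 were not called (median -0.13, 10.8% called), with 2 rises without GRLKO replicate 1. *Herpud1*, of the degradation machinery of the endoplasmic reticulum, had 912, 689 and 749 CPM in WT and 302, 311 and 336 CPM in GRLKO livers (log2 fold change -1.31 ± 0.12, adjusted p = 0.000992), while the chaperone *Hspa5* was not called, with 354, 452 and 318 CPM in WT and 298, 261 and 337 CPM in GRLKO livers. Of 26 heat shock proteins, 0 rose, 3 fell and 23 were not called (median -0.06, 11.5% called). Falls numbered 1 in every fit that left out a liver but the one without GRLKO replicate 3, and 1 rose without GRLKO replicate 1. *Hspb8*, a small heat shock protein, was the fall called in all fits, with 159, 149 and 166 CPM in WT and 55.2, 81.8 and 91.6 CPM in GRLKO livers (log2 fold change -1.05 ± 0.18, adjusted p = 0.00973).

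Transcription factors of hepatocytes that were called changed in both directions. Of 68 tested, 8 rose, 11 fell and 49 were not called (median 0.02, 27.9% called), with 5 rises and 7 falls without WT replicate 3 and 7 falls without WT replicate 2 or GRLKO replicate 2. *Cebpa* (ENSMUSG00000034957), a master factor of hepatocyte metabolism, had 14.6, 15.5 and 17.4 CPM in WT and 39.5, 43 and 37.2 CPM in GRLKO livers (log2 fold change 1.33 ± 0.10, adjusted p = 0.000505), while its relative *Cebpb* had 22.9, 34 and 35.1 CPM in WT and 15, 14.4 and 15.6 CPM in GRLKO livers (log2 fold change -1.03 ± 0.16, adjusted p = 0.00781). The genotypes separated in opposite order for the pair. *Id3*, an inhibitor of helix-loop-helix factors, had 26, 15 and 20.4 CPM in WT and 43.1, 48.7 and 56.9 CPM in GRLKO livers (log2 fold change 1.28 ± 0.20, adjusted p = 0.00764). The immediate early receptor *Nr4a2* had 0.193, 0.509 and 0.307 CPM in WT and 2.99, 1.33 and 3.8 CPM in GRLKO livers (log2 fold change 2.98 ± 0.52, adjusted p = 0.0107). The retinoid partner *Rxra* was not called, with 317, 374 and 360 CPM in WT and 376, 401 and 372 CPM in GRLKO livers.

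Of 34 genes of metal and iron handling, 5 rose, 5 fell and 24 were not called (median 0.02, 29.4% called), 4 of the rises and all 5 falls in every fit that left out a liver. *Atp7b*, the copper exporter, had 12.4, 18.1 and 19.6 CPM in WT and 39, 40.6 and 32.8 CPM in GRLKO livers (log2 fold change 1.16 ± 0.17, adjusted p = 0.00639). *Slc39a14*, an importer of zinc and iron, had 275, 283 and 313 CPM in WT and 201, 198 and 178 CPM in GRLKO livers (log2 fold change -0.60 ± 0.09, adjusted p = 0.00732). The metallothioneins and ceruloplasmin, which bind zinc and copper, are among the falls, and the copper exporter is among the rises.

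Called genes of the periportal zone mostly fell. Of 22 periportal genes, 1 rose, 11 fell and 10 were not called (median -0.43, 54.5% called), with 6 falls without WT replicate 3, GRLKO replicate 1 or GRLKO replicate 3 and 0 rises without WT replicate 2 or GRLKO replicate 3. *Cps1*, *Apoa4* and *Cyp17a1* are among the falls. Of 21 pericentral genes, 3 rose, 5 fell and 13 were not called (median 0.13, 38.1% called), with 3 falls without WT replicate 2, WT replicate 3, GRLKO replicate 1 or GRLKO replicate 2. *Cldn2*, a tight junction protein, had 28.1, 30.2 and 23.3 CPM in WT and 65.6, 50.2 and 54.4 CPM in GRLKO livers (log2 fold change 1.06 ± 0.14, adjusted p = 0.00347), and *Aldh1a1*, a retinal dehydrogenase, had 826, 730 and 760 CPM in WT and 1224, 1293 and 1607 CPM in GRLKO livers (log2 fold change 0.83 ± 0.12, adjusted p = 0.00556). *Gulo*, which makes vitamin C in mice, had 353, 401 and 386 CPM in WT and 205, 195 and 235 CPM in GRLKO livers (log2 fold change -0.84 ± 0.10, adjusted p = 0.00255), and the glutamate carrier *Slc1a2* had 277, 353 and 357 CPM in WT and 109, 144 and 191 CPM in GRLKO livers (log2 fold change -1.15 ± 0.21, adjusted p = 0.0119). All 4 calls stood in each fit that left out a liver.

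The 8 most abundant called genes all fell. *Alb* had 126774, 123701 and 128642 CPM in WT and 95590, 101902 and 88019 CPM in GRLKO livers (log2 fold change -0.41 ± 0.07, adjusted p = 0.00913), and *Cyp2e1*, a P450 of pericentral cells, had 11419, 13415 and 12244 CPM in WT and 9050, 9264 and 8992 CPM in GRLKO livers (log2 fold change -0.44 ± 0.08, adjusted p = 0.0116). Of the mitochondrially encoded transcripts among the 8, cytochrome b (*mt-Cytb*) had 11811, 13718 and 13509 CPM in WT and 8265, 7760 and 6566 CPM in GRLKO livers (log2 fold change -0.79 ± 0.11, adjusted p = 0.00424), and *mt-Co3*, of complex IV, had 12123, 13763 and 13794 CPM in WT and 9499, 9760 and 8902 CPM in GRLKO livers (log2 fold change -0.49 ± 0.08, adjusted p = 0.0086). The log2 fold change was -0.66 for *mt-Nd4*, -0.43 for *mt-Atp6* and -0.38 for *mt-Co2*, which had an adjusted p of 0.0852 without WT replicate 3.

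The effect at ZT12 was set against the other hours of the same diet with a test of the difference itself, over all 36 livers on caloric restriction, as the effect at ZT12 minus the mean effect at ZT0, ZT4, ZT8, ZT16 and ZT20. It called 1323 of 13041 genes, 10.1%, but 815 without WT replicate 2, and shares the 6 livers with the comparison above. Of the 24 GR targets 11 were called, 10 with a lower and 1 with a higher value at ZT12. Among cholesterol synthesis genes 12 of 26 were called, 11 of them with a higher value at ZT12, and among ribosome biogenesis genes 12 of 46, all 12 with a lower value. Amino acid catabolism had 16 of 66, growth arrest 8 of 28 and NRF2 genes 11 of 36. Female-biased genes had 2 of 29, complement and coagulation 2 of 49 and interferon and inflammation 2 of 47, shares below that over all genes. A p that misses the threshold does not show no difference.

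Single genes show the shape of these differences. Levels here are CPM with all 36 livers scaled together and so differ slightly from those above. *Tsc22d3* had 212, 246 and 261 CPM in WT and 59, 74.4 and 66 CPM in GRLKO livers at ZT12, 52.9, 62.9 and 58.1 CPM against 31.4, 27 and 30.5 CPM at ZT8 and 42.8, 41 and 50.2 CPM against 41.3, 36.2 and 44.3 CPM at ZT0 (difference of effects -1.32 ± 0.15, adjusted p = 9.44e-07). The WT livers were at their highest at ZT12. *Fmo5* had 4555, 3620 and 4170 CPM against 942, 870 and 845 CPM at ZT12 and 618, 725 and 747 CPM against 355, 411 and 420 CPM at ZT0 (difference of effects -1.36 ± 0.15, adjusted p = 1.34e-06). *Plin5* had 129, 94.5 and 135 CPM against 19.7, 17.5 and 27.7 CPM at ZT12, 22.2, 42.3 and 28.3 CPM against 9.73, 13.9 and 12.7 CPM at ZT8 and 119, 98.2 and 99.3 CPM against 88.4, 104 and 64.4 CPM at ZT16 (difference of effects -1.90 ± 0.23, adjusted p = 3.94e-06). For *Sc5d* both genotypes were lower at ZT12 than at ZT8, and the WT livers dipped more deeply. WT livers had 173, 181 and 210 CPM against 594, 598 and 561 CPM in GRLKO livers at ZT12. At ZT8 the values were 937, 568 and 702 CPM against 846, 842 and 753 CPM (difference of effects 1.47 ± 0.15, adjusted p = 3.1e-07). *Aqp8* was at its lowest at ZT12 in both genotypes, with 17.4, 11.3 and 20.1 CPM against 63.2, 82.6 and 68.2 CPM at ZT12 and 339, 405 and 377 CPM against 300, 375 and 330 CPM at ZT20 (difference of effects 1.89 ± 0.23, adjusted p = 3.22e-06). *Nr3c1* had a difference of effects of 0.17 ± 0.09 (adjusted p = 0.246).

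**Figure D4:**
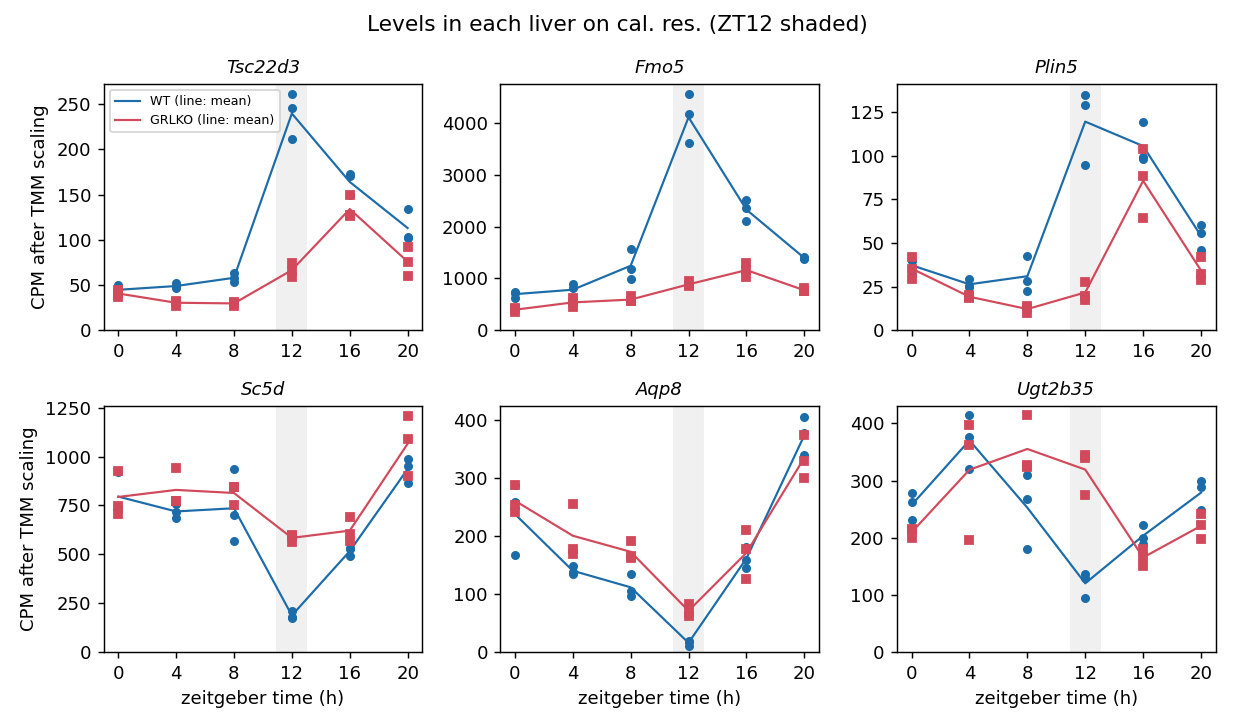
Level of *Tsc22d3*, *Fmo5*, *Plin5*, *Sc5d*, *Aqp8* and *Ugt2b35* by time of day (ZT, in hours) in 3 WT and 3 GRLKO livers per time point on caloric restriction, in CPM, with each point a liver and lines through the group means. WT livers peak at ZT12 in the first 3 genes and dip there in the others.

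The effect of receptor loss at ZT12 was also tested for a difference between diets, as the interaction over these 6 livers and the 8 livers (4 WT and 4 GRLKO) of mice on night-restricted control diet, with a term for each of the 4 groups. The diets were deposited in separate tables, so that diet and anything particular to a table cannot be told apart, and a shift common to both genotypes of a diet drops out of the interaction. It called 123 of 12225 genes, 1.01%, a number that depended on the fit: 49 (without GRLKO replicate 3) to 148 (without control-diet WT replicate 4) with 1 library left out, 458 with DESeq2 and 5 with a replicate block. For *Nr3c1* the log2 fold change on control diet was -1.98 and the difference between diets 0.30 ± 0.13 (adjusted p = 0.311). Of the 24 GR targets 2 were called, *Cdkn1a* and *Klf9*. *Klf9* had a log2 fold change of -1.25 under restriction and -0.52 under control feeding, and the difference was -0.72 ± 0.15 (adjusted p = 0.0395). For *Serpina6* the values were 2.12 and 0.68, and the difference 1.45 ± 0.21 (adjusted p = 0.00671).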

How the data were processed

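RNA-seq of 3 WT and 3 GRLKO livers (ZT12, caloric restriction) was used, from a table of estimated counts per gene that the authors deposited, for which the labels name FastQC, MultiQC, Salmon, DESeq2 and mm10. Values were rounded to integers before testing. They summed to 16249746, 16712295 and 20788575 per WT library and 17590672, 19230725 and 16766064 per GRLKO library, and 0.125% lay in IDs without a symbol. Genes passing filterByExpr of edgeR 4.0.16 in R 4.3.3 (minimum count 10) were scaled by TMM and tested with the quasi-likelihood F test. The p-values were adjusted by Benjamini-Hochberg over all genes tested, and genes were called under 0.05. Standard errors are the absolute log2 fold change divided by the square root of F. Log CPM for the principal components and the check of pairs had a prior count of 2. The scripts were tested on simulated data.

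The difference between times was tested in the 36 livers on caloric restriction and the difference between diets in 14 livers at ZT12, of which the 8 on control diet came from a second deposited table of estimated counts. Alternatives were DESeq2 1.42.0, RLE scaling, other low-count filters, a replicate block and a fit of all 36 livers. Others were removal of pancreas genes and leaving out each ZT12 library in turn. No pancreas gene passed the filter in the 6 livers, so that nothing could move there. The 30 libraries of other times were never left out. Replicates of the same number did not pair: over the genes tested, correlations of deviations from the group mean between WT and GRLKO livers of the same number were -0.051, 0.012 and -0.087, and the highest of any pair was 0.117.

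Genes were named from *Nr3c1*; the 12 largest rises and 12 largest falls with at least 5 CPM in 1 group, more than 3 counts in a library of each group, no overlap, a call in all 6 fits that left out a library and a symbol other than a predicted-gene name, with peroxisome, bile acid, clock and pancreas genes left out; the 8 most abundant called genes; for each list up to 4 called members each way with the lowest adjusted p and up to 2 abundant members not called; all GR targets on the list; and the top gene of each marker list. Some of these are not reported here. The members and the lists were chosen with earlier results of these data known. The remaining deposited tables were not used here. Promoters are from RefSeq on GRCm38.p6.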

Additional observations from a re-analysis of the deposited data

Results flagged for a closer look

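The difference between GRLKO and WT livers at ZT12 differed between the diets, by the test of the difference itself, in 14 of the named genes. The test called 123 genes in all, 49 without GRLKO replicate 3, 458 with DESeq2 and 5 with a replicate block, so at least 9 of the 14 were not called with the block. The value is the log2 fold change on caloric restriction minus that on control diet, ± standard error, over 14 livers. In 9 genes it was below 0: *Mup7* -4.38 ± 0.89, *Cdkn1a* -3.72 ± 0.43, *Mup11* -3.41 ± 0.72, *Serpina3k* -2.64 ± 0.30, *Tsku* -1.77 ± 0.35, *Plin5* -1.39 ± 0.28, *Klf9* -0.72 ± 0.15, *Gulo* -0.57 ± 0.12 and *F9* -0.47 ± 0.10. In 5 genes it was above 0: *Serpina6* 1.45 ± 0.21, *Ugt2b35* 1.32 ± 0.28, *Sc5d* 1.08 ± 0.21, *Bdh1* 0.87 ± 0.14 and *Ugp2* 0.65 ± 0.13. The adjusted p over all genes tested ran from 0.00287 (*Serpina3k*) to 0.0483 (*F9*). On control diet alone the log2 fold changes were closer to 0, such as -1.07 for *Plin5* and 0.56 for *Sc5d*. The genes were named by their effect in the same restricted livers, so that values closer to 0 on control diet are partly built in. *Ugp2* went from -0.13 on control diet to 0.51 under restriction, and without WT replicate 3 its adjusted p under restriction was 0.0694. WT replicate 2 was the highest liver in *Mup7* and *Mup11*, which belong to a family whose counts are hard to tell apart.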

How the results depend on the processing

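The number of genes called between GRLKO and WT livers was 1795, and it was 2068 with DESeq2 and 1799 with RLE scaling. With all 36 livers on caloric restriction in the fit it was 2805, a fit with more samples. Leaving out 1 library gave 899 (without GRLKO replicate 3) to 1329 (without WT replicate 1), a fit with fewer samples.

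The difference between times called 1323 genes, and 815 (without WT replicate 2) to 1209 (without GRLKO replicate 1) with 1 library of ZT12 left out. The difference between diets called 123 genes, 458 with DESeq2, and 49 (without GRLKO replicate 3) to 148 (without control-diet WT replicate 4) with 1 library left out; the cause was not tested. Distinct genes called on the function lists numbered 326, and 205 (without GRLKO replicate 3) to 275 (without WT replicate 1) with 1 library left out.

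With a replicate block in the fit, 889 genes were called between genotypes, 5 between diets and 216 on the function lists; the cause was not tested. Under the replicate block 226 of 276 named genes stayed on their side of the threshold, 49 lost their call and 1 gained one, and 19 of 36 lists kept their number of called members within 1.5 times.

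Of the 276 named genes, called or not, 267 stayed on their side of the threshold with DESeq2 (2 lost a call), 275 with RLE scaling, 265 without the low-count filter (11 lost a call), 233 without WT replicate 3 (41 lost a call) and 231 without GRLKO replicate 3 (44 lost a call). Of 36 lists, 32 kept their number of called members within 1.5 times with DESeq2, 22 without WT replicate 3 and 19 without GRLKO replicate 3. No named gene changed direction while called. Genes with few counts are the least precise, and 3 livers per genotype limit what is called.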
